A study of Mus musculus with 10 samples.

Results

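The 10 genes described here, Atf4, Atf3, Atf5, Ddit3, Trib3, Ppp1r15a, Chac1, Sesn2, Nupr1 and Eif4ebp1, are regulators of the integrated stress response or genes switched on by it. They were chosen by name among the 54532 genes of a table of mouse liver expression, in which they hold 11 entries because Ddit3 is listed under 2 identifiers. All livers came from C57BL/6J mice with a murine ASK1 cDNA behind a lox-stop-lox cassette at the ROSA26 locus. In ASK1+hep mice Alb-Cre, which is driven by the albumin promoter, removes the stop cassette in hepatocytes, whereas in the littermate controls, ASK1f/f, the cassette stays. There were 5 livers of each genotype. All mice had been on a high fat diet (HFD) holding 59% fat for 7 weeks, from 6 weeks of age, and had fasted for 5 h. Values are FPKM, reads scaled by gene length and by a size set for each library. Comparison between genes rests on the first scaling and comparison between livers on the second. The library size implied by the values was 0.890 to 1.06 times the reads on genes. In some livers it was below the reads counted, so it is not a plain total of reads. Levels between livers depend in part on that choice.

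The integrated stress response joins several alarms to a single switch. Kinases that sense misfolded protein in the endoplasmic reticulum, missing amino acids, double-stranded RNA or mitochondrial damage phosphorylate the translation factor eIF2, and most protein synthesis slows. The mRNA of Atf4 is then translated better, since short reading frames in its leader no longer hold the ribosomes back, and the ATF4 protein switches on genes of amino acid supply, of redox balance and of recovery or death. In the liver this response is known to follow fasting, amino acid imbalance, lipid load and mitochondrial stress, and the hormone genes Fgf21 and Gdf15 are among its outputs. An mRNA level reports the transcript only, and these data hold no measure of eIF2 phosphorylation or of ATF4 protein. In a whole liver, more transcript per cell cannot be told apart from more cells that carry it.

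Because ATF4 acts by binding DNA together with C/EBP proteins, the promoters were searched for the core of the C/EBP-ATF response element, TGATGNAA, read on both strands (TTNCATCA on the other). RefSeq promoters on GRCm38.p6, 250 bases before to 50 bases after a transcription start, were at hand for 9 of the 10 members. The core lay in those of Atf3, Chac1, Nupr1 and Trib3, while 3.97% of all 32851 promoters of this length held it. The promoter of Ppp1r15a held the cyclic AMP response element TGACGTCA instead, a palindrome that is present in 1.79% of all promoters and was looked for after the promoters had been seen. The windows are shown because they carry these letters, with the matching bases in capitals, beside those of the ATF4 target genes Fgf21 and Asns.
Atf3: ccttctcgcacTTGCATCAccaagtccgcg
Chac1: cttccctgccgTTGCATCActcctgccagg
Nupr1: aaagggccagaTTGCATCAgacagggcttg
Trib3: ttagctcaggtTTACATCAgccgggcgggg
Ppp1r15a: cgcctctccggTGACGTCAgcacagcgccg
Fgf21: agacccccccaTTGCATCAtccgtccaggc
Asns: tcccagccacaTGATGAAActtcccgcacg
On GRCm38.p6 the windows run from chr1:191183425-191183454 on the minus strand for Atf3, chr2:119351038-119351067 on the plus strand for Chac1, chr7:126625562-126625591 on the minus strand for Nupr1 and chr2:152344028-152344057 on the minus strand for Trib3. Those of Ppp1r15a, Fgf21 and Asns, all on the minus strand, are chr7:45526262-45526291, chr7:45615611-45615640 and chr6:7693214-7693243. Counted from the RefSeq start, the motif begins 110 bases upstream in both Atf3 and Nupr1, 193 in Chac1 and 139 in Fgf21. It begins 23 upstream in Asns, 12 in Ppp1r15a, and at base 15 downstream in Trib3. These starts can differ from the gene positions given below. By those positions the Trib3 motif lies upstream of the gene, and the motifs of Atf3 and Nupr1 lie inside it. A match describes letters only, and no binding was measured.

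The leaders of the members differ in the other feature this response is known for. In the longest coding transcript of GENCODE M21, the 5′ leader of Ppp1r15a, 764 bases long, holds 7 ATG triplets before the start codon. Atf4 has 3 in 594 bases, Atf5 has 2 in 373 and Ddit3 has 2 in 186. Atf3, Sesn2 and Nupr1 have 1 each, and Chac1, Eif4ebp1 and Trib3 have 0. Thus 7 of 10 members carry an upstream ATG, against 49.8% of the 11909 protein-coding genes compared. Their leaders are also longer, with a median of 247 bases against 168, and a longer leader holds more triplets of any kind.

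Of the 54532 genes, 13306 passed the filter on low values, 10 or more reads in 5 or more livers after scaling to the median library, and all 10 members were among them. The second Ddit3 entry (ENSMUSG00000116429), which shares 105 exon bases with the first, was listed at 0 in every liver and was not tested. Libraries held between 13367742 and 16163378 reads on genes, and their median was 14618268 in ASK1f/f and 15101619 in ASK1+hep. Xist stayed at or below 0.0129 FPKM and Ddx3y between 6.02 and 16.8 FPKM in all 10 livers, the pattern of male tissue. The paper describes male mice for body weight after 7 weeks of HFD. Hepatocyte markers such as Alb were abundant in every liver, with the 8 listed genes summing to 34223 to 47041 FPKM in controls and 41071 to 52737 FPKM in ASK1+hep. Map3k5, the gene of ASK1, ranged from 4.71 to 6.88 FPKM in 4 control libraries, but the library labelled ASK1f/f replicate 5 held 19.8 FPKM, above the 7.68 to 16.4 FPKM of ASK1+hep. That library goes against its label. A second library, ASK1+hep replicate 3, had 10.9% mitochondrial reads against 4.19 to 6.74% in the others, and the fewest genes with a read, 18391 against 19263 to 20315. Estimates of the members are also given without ASK1+hep replicate 3 and, apart from it, without the library labelled ASK1f/f replicate 5.

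The mean level, counted here and for the lists on the log2(FPKM + 1) scale, was higher in ASK1+hep for 9 of the 10 members and lower for Chac1, and 0 of 10 passed the adjusted threshold of 0.05 in limma, as was so for 0% of all genes tested. Trib3 (1.82-fold) and Ppp1r15a (1.62-fold) had an unadjusted p under 0.05, both higher in ASK1+hep, where 3.05% of all genes were past that limit in the same direction and 2.72% in the other. The median log2 fold change of the members was 0.35 against -0.0065 over all genes, of which 48.0% had a higher mean in ASK1+hep. No member separated the genotypes in every liver, against 0.864% of all genes. Log2 fold changes are on the log2(FPKM + 1) scale, which understates the change of low genes, and each p comes from 5 livers against 5, where an exact permutation test of a single gene cannot go below 0.00794.

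**Figure D1:**
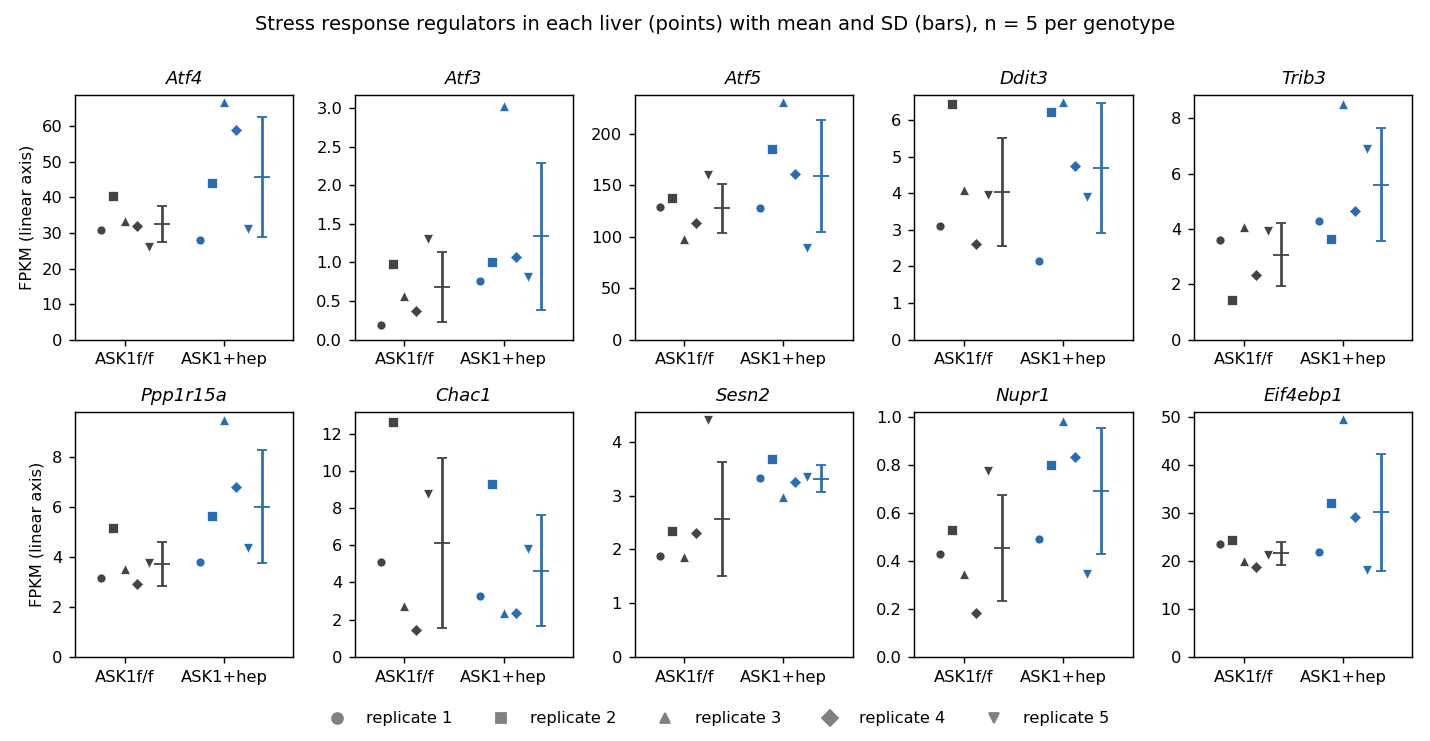
FPKM of each member in each liver (linear axis from 0), 1 panel a gene, with ASK1f/f and ASK1+hep side by side, each point a liver, its shape the replicate number, and each bar the genotype mean with its SD. The genotypes overlap in all 10 panels, but 4 of 5 ASK1+hep livers are above every control in Trib3 and 4 of 5 controls are below every ASK1+hep liver in Sesn2.

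**Figure D2:**
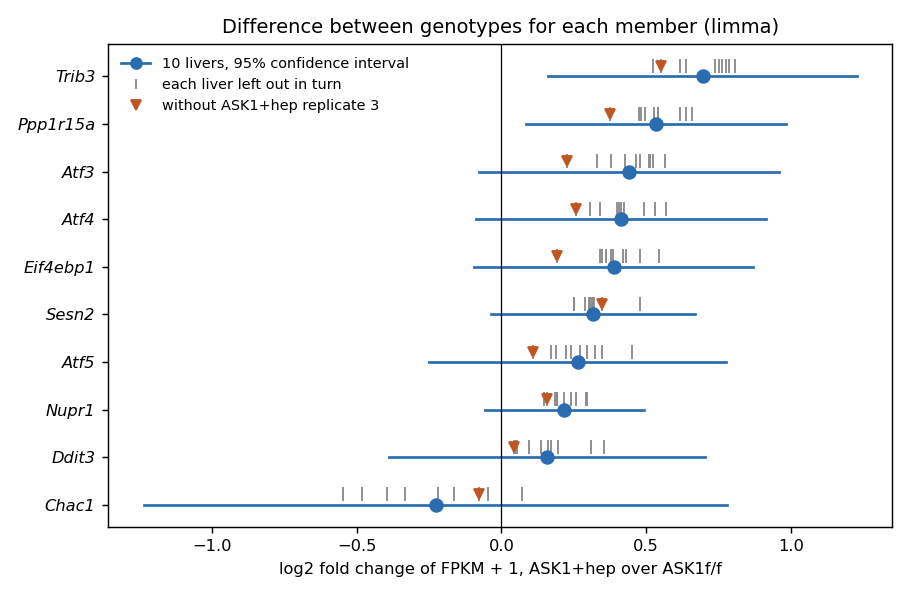
Log2 fold change of FPKM + 1, ASK1+hep over ASK1f/f, for each member from limma, with the point and line giving the estimate and its 95% confidence interval over 10 livers, the ticks the estimate with each liver left out, and the triangle the estimate without ASK1+hep replicate 3. The intervals of Trib3 and Ppp1r15a lie above 0, that of Chac1 is the widest, and the triangle lies below the point for 8 of the 9 members with a positive estimate, Sesn2 being the exception.

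Atf4 (ENSMUSG00000042406, chr15:80255184-80257541, plus strand) encodes the transcription factor at the centre of the response. Control livers, in the order of their replicate numbers, held 30.8, 40.3, 33.3, 32.0 and 26.2 FPKM of its transcript, and ASK1+hep livers held 27.9, 44.1, 66.9, 58.8 and 31.0 FPKM. Replicates 2, 3 and 4 of ASK1+hep were above every control, whereas replicates 1 and 5 lay within the control range. The means were 32.5 ± 5.13 and 45.8 ± 17.0 FPKM (SD, n = 5 each), a 1.41-fold ratio. On the log2 scale the difference was 0.41 with an SE of 0.23 and a 95% interval from -0.09 to 0.92 (limma adjusted p = 0.812, exact two-sided permutation p = 0.175). Without ASK1+hep replicate 3 it was 0.26. Leaving out the library labelled ASK1f/f replicate 5 instead gave 0.34, and leaving out both, a choice made after seeing the data, gave 0.19.

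Atf5, Atf3 and Ddit3 (CHOP) encode further transcription factors that ATF4 is known to switch on. Atf5 (ENSMUSG00000038539, chr7:44812256-44816658, minus strand) has upstream reading frames like Atf4 and was the most abundant member, at 97.4 to 160 FPKM in controls and 89.0 to 231 FPKM in ASK1+hep. Its lowest and its highest value were both in ASK1+hep, in replicates 5 and 3, and the mean ratio was 1.25 (log2 fold change 0.26, interval from -0.25 to 0.78, limma adjusted p = 0.821). Without ASK1+hep replicate 3 the log2 fold change was 0.11. Exons of Atf5 share 82 bases with Nup62 and 82 bases with Il4i1 on the opposite strand, and whether the counting used strand is not given in the sources used here.

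Atf3 (ENSMUSG00000026628, chr1:191170296-191218039, minus strand), which many stresses induce quickly, was at 0.195, 0.973, 0.559, 0.366 and 1.30 FPKM in the controls. The ASK1+hep livers had 0.762, 1.01, 3.03, 1.07 and 0.809 FPKM. Only ASK1+hep replicate 3 was above all controls, and with 7 to 90 reads per liver the gene was thinly covered. Its mean ratio was 1.97 and its log2 fold change 0.44 (SE 0.24, limma adjusted p = 0.812, exact two-sided permutation p = 0.135), but 0.23 without that liver. Leaving out the library labelled ASK1f/f replicate 5 instead gave 0.57 (limma unadjusted p = 0.0373, adjusted p = 0.799). Ddit3 (ENSMUSG00000025408, chr10:127290774-127296288, plus strand), a factor known for its part in stress-induced cell death, ranged from 2.61 to 6.45 FPKM in controls and from 2.16 to 6.48 FPKM in ASK1+hep. The ranges of the genotypes nearly coincided. The log2 fold change of Ddit3 was 0.16, its interval ran from -0.39 to 0.70 and its limma adjusted p was 0.891, while without ASK1+hep replicate 3 the estimate was 0.043. Ddit3 shares 68 exon bases with Mars, of the opposite strand.

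Trib3 (ENSMUSG00000032715, chr2:152337422-152344032, minus strand) encodes a pseudokinase that is induced by ATF4 and CHOP and is known to inhibit AKT. Its levels were 3.61, 1.43, 4.06, 2.35 and 3.91 FPKM in controls and 4.28, 3.64, 8.50, 4.65 and 6.90 FPKM in ASK1+hep. Every ASK1+hep liver but replicate 2 was above the highest control, and that liver was above 3 of the 5 controls. Means of 3.07 ± 1.14 and 5.60 ± 2.04 FPKM (SD, n = 5 each) gave a log2 fold change of 0.70 (SE 0.24, 95% interval from 0.16 to 1.23). On this scale it was the largest difference among the members, whereas Atf3 had the larger one with a pseudocount of 0.1 (0.91 against 0.87) and with limma-voom (1.03 against 0.88). Trib3 ranked 235th of 13306 genes by p (limma p = 0.0150, adjusted p = 0.812, exact two-sided permutation p = 0.0317). Without ASK1+hep replicate 3 it was 0.55 (limma adjusted p = 0.998).

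Ppp1r15a (GADD34, ENSMUSG00000040435, chr7:45522916-45526268, minus strand) encodes the subunit that brings protein phosphatase 1 to eIF2 and so ends the response. It was at 3.16, 5.17, 3.53, 2.93 and 3.74 FPKM in the control livers and at 3.77, 5.64, 9.46, 6.80 and 4.35 FPKM in ASK1+hep. Replicates 2, 3 and 4 of ASK1+hep exceeded every control, as for Atf4. The log2 fold change was 0.54 (SE 0.21, 95% interval from 0.09 to 0.98, limma p = 0.0235, adjusted p = 0.812, exact two-sided permutation p = 0.0476). Leaving out ASK1+hep replicate 3 gave 0.38 (limma adjusted p = 0.998). Ppp1r15b, the constitutive partner in the same phosphatase, had means of 18.9 and 18.6 FPKM. Exons of Ppp1r15a share 12 bases with Tulp2 on the opposite strand.

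Chac1 (ENSMUSG00000027313, chr2:119351229-119354381, plus strand), which degrades glutathione, went the other way from the rest. The controls held 5.09, 12.6, 2.74, 1.44 and 8.77 FPKM and the ASK1+hep livers 3.26, 9.31, 2.35, 2.36 and 5.81 FPKM. Control replicate 2 had the highest value and control replicate 4 the lowest, so that ASK1f/f alone spanned the whole range, with a coefficient of variation of 74.5%. The log2 fold change of -0.23 had a 95% interval from -1.24 to 0.78 (limma adjusted p = 0.914), and it was 0.07 without ASK1f/f replicate 2. Leaving out ASK1+hep replicate 3 instead gave -0.08, and leaving out the library labelled ASK1f/f replicate 5 gave -0.05.

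Sesn2 and Eif4ebp1 tie the response to TORC1, the kinase complex that promotes protein synthesis when amino acids are plentiful. SESN2 is a leucine sensor that restrains TORC1 (ENSMUSG00000028893, chr4:132492032-132510501, minus strand). Its transcript was at 1.88, 2.34, 1.87, 2.31 and 4.41 FPKM in controls and at 3.32, 3.67, 2.97, 3.25 and 3.34 FPKM in ASK1+hep. The 5 ASK1+hep livers lay close together (3.31 ± 0.252 FPKM, SD), above 4 controls and below the library labelled ASK1f/f replicate 5. With that library the log2 fold change was 0.32 (SE 0.16, limma adjusted p = 0.812, exact two-sided permutation p = 0.0952). Without it limma gave 0.48 (unadjusted p = 0.000667, adjusted p = 0.287), where 5.87% of all genes had an unadjusted p under 0.05. The genotypes then no longer overlapped, but the library left out was the one that made them overlap. The share of all genes without overlap was not counted for this setting. Without ASK1+hep replicate 3 the estimate was 0.35. The library labelled ASK1f/f replicate 5 is the one whose Map3k5 goes against its label, and Sesn2 was the only member with its highest value there.

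Eif4ebp1 (ENSMUSG00000031490, chr8:27260329-27276674, plus strand) encodes a brake on cap-dependent translation that TORC1 releases. It spread from 18.6 to 24.3 FPKM in controls and from 18.0 to 49.4 FPKM in ASK1+hep, with SDs of 2.40 and 12.2 FPKM. Again replicates 2, 3 and 4 of ASK1+hep were above the controls while replicates 1 and 5 were not, and the mean ratio was 1.40 (log2 fold change 0.39, SE 0.22, limma adjusted p = 0.812). Without ASK1+hep replicate 3 the log2 fold change of Eif4ebp1 was 0.19. Nupr1 (ENSMUSG00000030717, chr7:126623249-126630861, minus strand), a small chromatin-bound stress protein, was the least abundant member at 0.183 to 0.775 FPKM in controls and 0.347 to 0.982 FPKM in ASK1+hep. It rested on 7 to 34 reads per liver, and its log2 fold change of 0.22 had an interval from -0.06 to 0.49. The estimate for Nupr1 was 0.16 without ASK1+hep replicate 3. Leaving out the library labelled ASK1f/f replicate 5 instead gave 0.29 (limma unadjusted p = 0.0342, adjusted p = 0.795).

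Averaged over the 10 livers, the levels ran from Atf5 (143 FPKM) through Atf4 (39.1) and Eif4ebp1 (25.8) to Chac1 (5.37), Ppp1r15a (4.86), Ddit3 (4.37), Trib3 (4.33), Sesn2 (2.94), Atf3 (1.01) and Nupr1 (0.572). The first 3 kept their order in all 10 livers. Chac1, Ppp1r15a, Ddit3 and Trib3, by contrast, changed places from liver to liver, each being higher than the next of these 4 in 5 or 6 livers. Among neighbours, the ranges over livers were separate only between Atf5 and Atf4 and between Eif4ebp1 and Chac1.

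The members varied from liver to liver within each genotype. ASK1+hep replicate 3 had the highest value of all 10 livers for 8 members, with Chac1 and Sesn2 as exceptions, and its mean z score over the members was 1.39. ASK1+hep replicates 2 and 4 were above the median liver for 9 members each, with mean z scores of 0.69 and 0.51. ASK1+hep replicates 1 and 5, in contrast, were above the median for 2 and 4 members and had mean z scores of -0.39 and -0.23, within the range of the controls. Among the controls replicate 4 was above the median for 0 members (-1.02) and replicate 2 for 8 (0.08). Control replicates 1, 3 and 5 had mean z scores of -0.60, -0.65 and 0.22. Livers thus differed within both genotypes, and the spread was not tested.

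Part of this pattern went with library measures. The liver with the highest member levels was the one with 10.9% mitochondrial reads, and ASK1+hep replicate 2 had the next highest share, 6.74%, while replicate 4 had 4.30%. The ratio of implied library size to reads on genes was lowest in ASK1+hep replicates 3 (0.890), 2 (0.967) and 4 (0.978). Control replicate 2 came next (0.981), and the others were at 1.02 to 1.06. Among these was control replicate 5 (1.05), with a mean z score of 0.22. Scaling by all reads instead left 9 members higher, with a median of 0.29. Without ASK1+hep replicate 3 the median log2 fold change of the members was 0.21, and 9 members still had a positive and 1 a negative estimate. Trib3 and Ppp1r15a again were the 2 with an unadjusted p under 0.05, where 4.5% of all genes were past that limit. Leaving out both replicate 3 and the control library with high Map3k5, a choice made after seeing the data, gave 3 such members, where 5.60% of all genes were past the same limit, and 0 past the adjusted threshold. The part of RNA quality in the member levels was not tested.

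**Figure D3:**
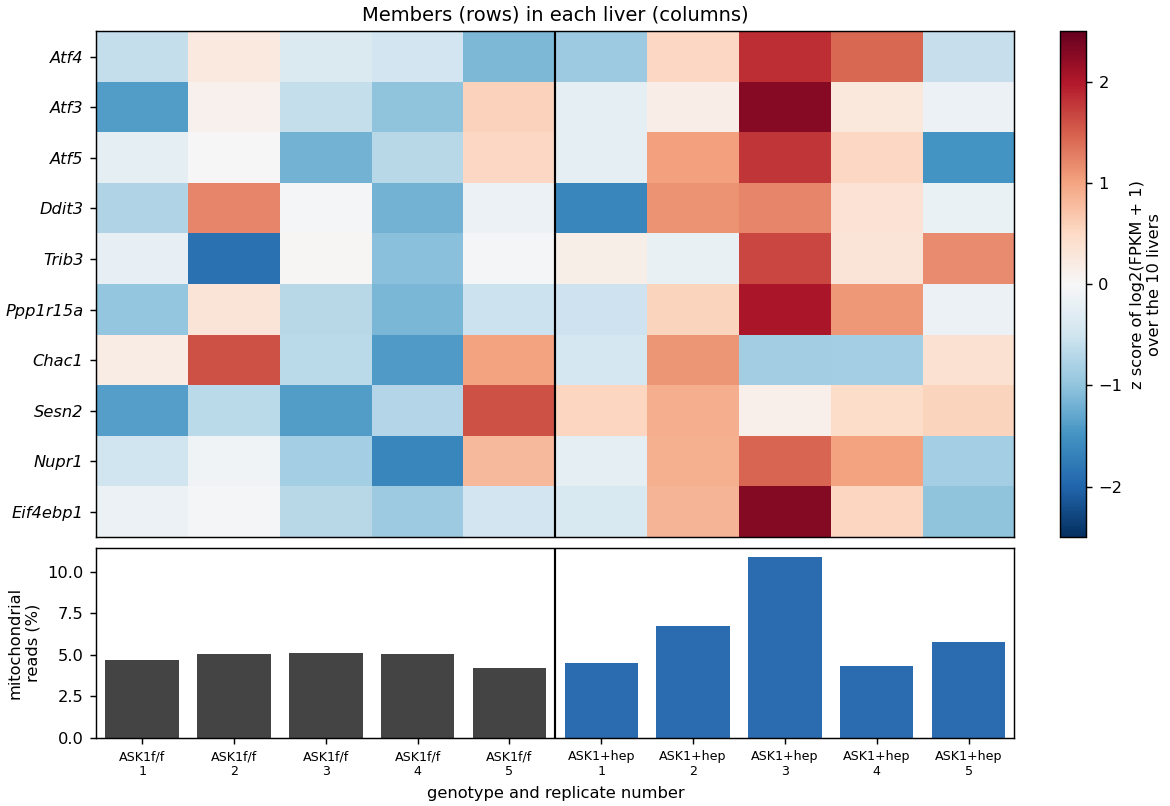
Upper panel, z score of log2(FPKM + 1) over the 10 livers (colour scale) for each member (rows) in each liver (columns), and lower panel, the percentage of reads on mitochondrial genes per liver, with ASK1f/f left and ASK1+hep right of the line. ASK1+hep replicate 3 is darkest red in 8 rows and has the tallest bar, 10.9%, and ASK1+hep replicates 1 and 5 are blue or pale in most rows.

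Markers of other cells were read beside the members. The 6 macrophage markers summed to 87.4 to 149 FPKM in controls and 55.9 to 140 FPKM in ASK1+hep, and the 5 endothelial markers to 23.1 to 33.6 and 19.1 to 33.4 FPKM. Stellate cell markers ranged from 19.3 to 29.6 against 15.5 to 28.7 FPKM, cholangiocyte markers from 13.5 to 32.7 against 15.6 to 28.3, lymphocyte markers from 1.31 to 1.76 against 0.874 to 2.76 and neutrophil markers from 1.65 to 15.9 against 2.13 to 8.14. All these ranges overlapped. A lower mean in ASK1+hep was found for all 6 macrophage, 4 of 5 endothelial, 4 of 6 stellate cell and 3 of 5 cholangiocyte markers. Of the 8 hepatocyte markers 5 had a higher mean, where 48.0% of all genes did. ASK1+hep replicates 2 and 3 had the lowest macrophage sums (55.9 and 71.3 FPKM) and the highest hepatocyte sums (51213 and 52737 FPKM). Erythroid markers reached further in ASK1+hep, from 324 to 1053 FPKM against 333 to 490. Of these, 2 genes were higher at an unadjusted p under 0.05, as were 3.05% of all genes. Of the listed markers of any type, 0 were at 0 in all livers. Immediate early genes, which answer handling as well as stress, summed to 48.5 to 164 FPKM in ASK1f/f, with the highest sum in replicate 2, and to 72.5 to 157 FPKM in ASK1+hep, with the highest sum in replicate 4. Control replicate 2 was also the highest control for Atf4, Ddit3, Ppp1r15a, Chac1 and Eif4ebp1. The part of the cell mix, erythroid cells included, or of handling in the member levels was not tested.

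The genes whose log2(FPKM + 1) followed Atf4 most closely over the 10 livers were Fbxw7 (Pearson r = 0.969), Ebna1bp2 (0.967), Timm8b (0.963), Zfp428 (0.963) and Ubb (0.949). After removal of the genotype means, r for these 5 was between 0.938 and 0.983, and without ASK1+hep replicate 3 it was between 0.910 and 0.951. For the mean z score of the members the closest genes were Gpd1 (0.972), Alkbh6 (0.968), Htatip2 (0.961), Gdf15 (0.956) and Fam25c (0.953). Gdf15, a secreted stress hormone, is a known ATF4 target, and its r was 0.939 without that liver. These values describe 10 livers that share library preparation and scaling, and they were picked as the highest of all genes tested.

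The rest of the pathway was taken from 6 lists with 120 symbols, of which 112 were tested. Here too 0 genes passed the adjusted threshold in limma, 50 had a higher and 62 a lower mean in ASK1+hep, and an unadjusted p under 0.05 was found for 4 higher genes and 1 lower gene, where 5.77% of all genes tested were past this limit in either direction. The 3 genes of lowest p are named for each list.

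Above the switch stand the kinases and their regulators. Of 10 tested eIF2 kinases and regulators, which activate or restrain them, 3 had a higher and 7 a lower mean, with a median log2 fold change of -0.05. Dele1, which carries the alarm from mitochondria to the kinase HRI, averaged 14.0 FPKM in the controls and 11.9 FPKM in ASK1+hep (log2 fold change -0.23, SE 0.10, limma p = 0.0485, adjusted p = 0.812, exact two-sided permutation p = 0.0238). The gene of HRI itself, Eif2ak1, had means of 7.70 and 8.96 FPKM (limma adjusted p = 0.812), and the log2 fold change of Tarbp2, whose protein restrains the kinase PKR, was 0.22. Eif2ak3, which encodes the endoplasmic reticulum kinase PERK, was at 2.16 and 2.00 FPKM and Eif2ak4, which encodes the amino acid sensor GCN2, at 1.21 and 1.18 FPKM. For the 14 subunits of eIF2, its exchange factor eIF2B and its phosphatases, 6 had a higher and 8 a lower mean, led by Ppp1ca (79.9 and 68.1 FPKM), Eif2s3x (9.68 and 7.23 FPKM) and Eif2b4 (15.8 and 19.8 FPKM), with 0 at an unadjusted p under 0.05.

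Among bZIP factors that can pair with ATF4, 11 of 19 had a higher mean, against 48.0% of all genes, and the median log2 fold change was 0.07. Jun, whose protein is phosphorylated by the JNK kinases downstream of ASK1, averaged 5.26 ± 3.37 FPKM in the controls and 15.2 ± 10.5 FPKM with ASK1 overexpression (SD, n = 5 each). Its log2 fold change was 1.27 (SE 0.40, limma p = 0.00861, adjusted p = 0.812, exact two-sided permutation p = 0.0317). Jund had means of 27.9 and 53.0 FPKM (log2 fold change 0.73, limma adjusted p = 0.812), and the log2 fold change of Jdp2 was -0.30.

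Below the switch, 22 of the 34 tested ATF4 targets of amino acid supply and secretion had a higher mean, against 48.0% of all genes. Their median log2 fold change was 0.08. An unadjusted p under 0.05 was found for 3, all higher, where 3.05% of all genes were higher past that limit. Fgf21, a liver hormone that the study treats as ATF4-dependent, had 2.46 to 4.74 FPKM in the controls and 7.40 to 30.1 FPKM in ASK1+hep. These ranges did not overlap, as for 0.398% of all genes in this direction. The Fgf21 mean was 5.57-fold higher, with a log2 fold change of 2.06 (SE 0.32), the lowest p of all 13306 genes and a limma adjusted p of 0.355. It passed the adjusted threshold with quality weights (limma-voom adjusted p = 0.0445) and without ASK1+hep replicate 5 (limma adjusted p = 0.0170). The lowest Fgf21 values of ASK1+hep were those of replicates 5 (7.40 FPKM) and 1 (12.3 FPKM), the livers that also stood lowest in their genotype by mean z score of the members. Asns, which makes asparagine, had means of 2.03 ± 2.19 and 7.02 ± 2.87 FPKM (SD, n = 5 each) and a log2 fold change of 1.56 (SE 0.42, limma adjusted p = 0.726). It was highest among the controls in replicate 5, at 5.77 FPKM, and lowest among ASK1+hep in replicate 3, at 2.65 FPKM, the liver that led in 8 members. Without these 2 libraries, a setting chosen after seeing the data, its log2 fold change was 2.18 and its limma adjusted p 0.0256. Gdf15 was at 3.97 ± 1.39 and 7.51 ± 3.67 FPKM (log2 fold change 0.70, SE 0.31, limma p = 0.0436, adjusted p = 0.812, exact two-sided permutation p = 0.0873).

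The other branches of the unfolded protein response, IRE1 with XBP1 and ATF6, had their targets mostly on the opposite side. Of 22 genes, 20 had a lower and 2 a higher mean in ASK1+hep, where 48.0% of all genes had a higher mean. Their median log2 fold change was -0.16, with 0 genes at an unadjusted p under 0.05. The lowest p belonged to Edem1, of the disposal of misfolded protein (25.6 and 21.7 FPKM), Dnajc3, a co-chaperone that restrains PERK (log2 fold change -0.31), and Ern1, the gene of IRE1 itself (-0.22). The chaperone gene Hspa5 (BiP) had means of 148 and 126 FPKM and Xbp1 of 80.9 and 72.6 FPKM. This direction was not stable, since 14 of the 22 were lower and the median was -0.0168 without the library labelled ASK1f/f replicate 5, and 9 were lower without that library and ASK1+hep replicate 3. Among 13 relatives of the members and TORC1 regulators, 6 had a higher and 7 a lower mean, with Trib1 (9.94 and 11.7 FPKM), Trib2 and Eif4e having the lowest p and 0 an unadjusted p under 0.05.

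**Figure D4:**
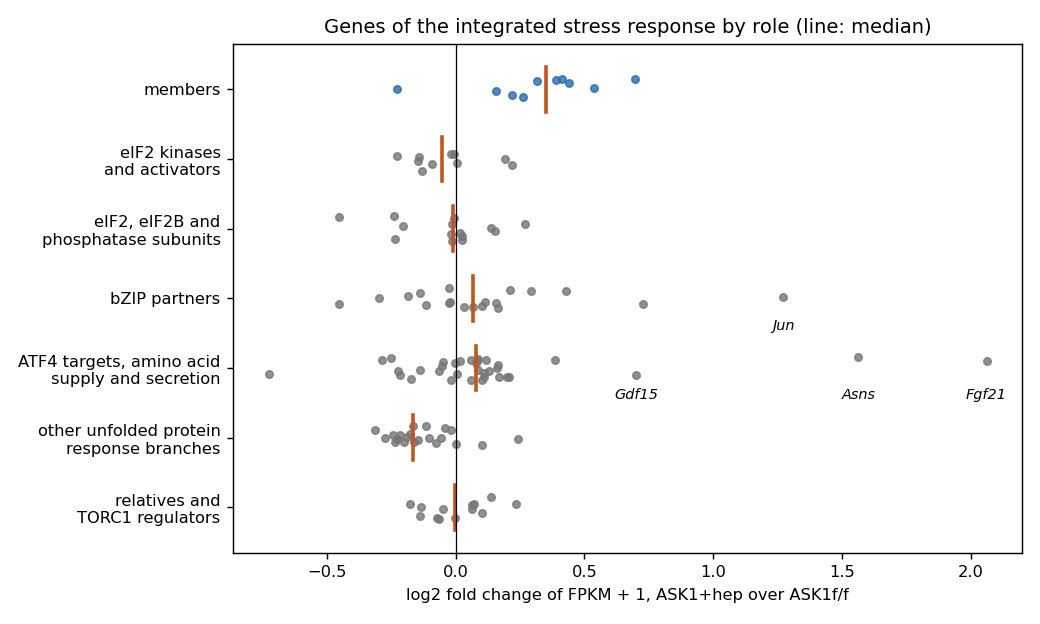
Log2 fold change of FPKM + 1, ASK1+hep over ASK1f/f, of every tested gene (points) of the 10 members and of the 6 lists of the pathway (rows), with the median of each list. The members lie mostly right of 0 (median 0.35), the targets of the other unfolded protein response branches mostly left (median -0.16), and Fgf21, Asns and Jun stand farthest right.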

How the data were processed

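Bulk RNA sequencing of 10 mouse livers, 5 per genotype, was analysed. The authors cleaned poly-A RNA reads (fastp, per the submitters' processing notes), mapped them with Hisat2, counted them with FeatureCounts and deposited FPKM per gene. Versions and genome build are not given in the sources used here. GENCODE M21 (GRCm38) holds 54409 of the 54532 genes, 98.3% of them at the same position, all members included. FPKM times gene length gave whole reads for 100% of values within 0.01 reads, and these reads served for the filter (10 or more, after scaling to the median library, in 5 or more livers, and 15 or more over all livers), for depth and for limma-voom.

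Groups came from the genotype labels. limma 3.58.1 (R 4.3.3) was fitted to log2(FPKM + 1) of 13306 genes, with a mean-variance trend and no covariates. Adjustment was by Benjamini-Hochberg (threshold 0.05). This fit to the deposited unit stands in place of the count test of the study, which was not run on the recovered reads. By its own test the paper reports Fgf21 as strongly raised in ASK1+hep livers. Single genes were also compared by exact two-sided permutation over all 252 splits. On simulated data with 200 of 13306 genes changed by a log2 fold change of 2, 85.5% were recovered and 5.525% of 181 calls were false. The planted change was larger than any member's estimate (at most 0.70), and each simulated gene varied on its own. These figures therefore do not give the power of the test for the members. The members and the lists were chosen with earlier results of these data known. Named were the members, Map3k5, Fgf21, the 3 genes of lowest p per list, and the 5 genes most like Atf4 and the 5 most like the members' mean z score. Ppp1r15b, Eif2ak3, Eif2ak4, Hspa5, Xbp1, marker and overlapping genes beyond that rule were named as context. Alternatives were no filter, 10 reads in every liver, a pseudocount of 0.1, limma-voom with and without quality weights, scaling by all reads, a replicate block, the animal tag prefix as covariate and leaving out each liver. No pair of libraries came near sampling noise (lowest chi-square per degree of freedom 19.06). Nothing in the labels says more of the mice than their tag and genotype, so p-values measure the spread between these livers. Plasma, adipose tissue and other experiments of the study were not analysed here.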

Additional observations from a re-analysis of the deposited data

Results flagged for a closer look

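In 3 of the 24 sets of 5 livers examined, a single liver stood further from the others than Dixon's 95% critical value (0.71 of the range of its genotype), where chance gives about 1 in 20. ASK1+hep replicate 3 held 3.03 FPKM of Atf3, with the nearest liver of its genotype at 1.07 FPKM, a gap of 0.865 of the range. The library labelled ASK1f/f replicate 5 held 4.41 FPKM of Sesn2, and the nearest control 2.34 FPKM (0.814). The same library held 19.8 FPKM of Map3k5, and the nearest control 6.88 FPKM (0.856). ASK1+hep replicate 3 is also the liver with 10.9% mitochondrial reads.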

How the results depend on the processing

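The number of members past the adjusted threshold was 0 under all 19 alternatives. Each member other than Chac1 kept its direction in every alternative that could be fitted, which for Atf3 and Nupr1 left out the filter of 10 reads in every liver. Without the library labelled ASK1f/f replicate 5, the log2 fold change was 0.35 for Atf5, 0.16 for Ddit3 and 0.78 for Trib3. In that setting it was 0.54 for Ppp1r15a and 0.39 for Eif4ebp1. Chac1 reversed to 0.10 with quality weights, 0.07 without ASK1f/f replicate 2 (from -0.55 to 0.07 over the livers left out in turn) and 0.10 without ASK1f/f replicate 5 and ASK1+hep replicate 3. Members with an unadjusted p under 0.05 numbered 2, but 6 with quality weights (all genes 7.30%), 3 without both livers (all genes 5.60%), and 1 to 6 with each liver left out: 1 without ASK1f/f replicate 1, ASK1f/f replicate 4 or ASK1+hep replicate 4, 3 without ASK1+hep replicate 1 (all genes 8.83%), 5 without ASK1f/f replicate 5 (all genes 5.87%) and 6 without ASK1+hep replicate 5 (all genes 12.8%). Of all genes, 0 passed the adjusted threshold, 1 with quality weights, 0 to 1 with each liver left out and 3 without both livers, and of the pathway lists 0, 1 (Fgf21), 0 to 1 (Fgf21, without ASK1+hep replicate 5) and 1 (Asns). At an unadjusted p under 0.05 were 768 genes, 1222 without a filter, 862 with scaling by all reads (31.4% of them higher in ASK1+hep against 52.9%) and 569 to 1733 with each liver left out. Scaling by all reads moved the median of all genes to -0.052 and left 9 members higher with a median of 0.29. Same-numbered livers deviated together by correlations of 0.0212 to 0.174, over 0.1 in 2 of 5 pairs. Their mean was 0.107, against -0.0275 for livers of different numbers. In 4 of 5 pairs the animal tags in the labels are neighbours. The study's methods name no pairing, so the numbers were not taken as pairs, and the main p-values ignore any matching. What the tags mean is not given in the sources used here. With the replicate block 880 genes had an unadjusted p under 0.05 and 0 passed the adjusted threshold, and 4 of 5 controls correlated best with their own number. Under the block Trib3 had a limma p of 0.000892 and an adjusted p of 0.609 and Ppp1r15a of 0.727. The causes of these changes were not tested. Atf3 and Nupr1, at 7 to 90 and 7 to 34 reads per liver, are limited by depth.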
